A study of Mus musculus with 2 samples.

Results

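Rab genes encode small GTPases, molecular switches that sit on the membranes of the cell's compartments. The members were all listed gene symbols made of Rab, a number and an optional letter, so names such as Rabl2 or Rab3gap1 were left out; 57 of the 24015 symbols matched. The older symbols Rab1, Rab7 and Rab9 stood in the files for the genes now called Rab1a, Rab7a and Rab9a. RNA had been sequenced from J-RGCs, a retinal ganglion cell type of the mouse marked by the adhesion molecule Jam2, at postnatal day 6. A transgenic line selective for the type labelled the cells with green fluorescent protein, and they were enriched first on magnetic beads and then by flow cytometry. The 2 libraries, A and B, formed 1 group, and each was a pool of 5 to 6 animals from its own litter. The promoter of the transgene, the strain and the sex were not given in the sources used here. With no second cell type, age or treatment, values could be compared only between genes or between the 2 libraries.

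A Rab protein is active when bound to GTP and then recruits effectors, the tethers, motors and coat factors that move, dock and fuse vesicles. Exchange factors load the GTP, GTPase-activating proteins end the active state, and GDI proteins carry the prenylated, inactive Rab through the cytosol back to its donor membrane. Each organelle has its own Rab members, from the endoplasmic reticulum and Golgi through secretory vesicles to early, recycling and late endosomes. In neurons they serve the delivery of membrane to axons and dendrites, synaptic vesicle release and the return of endosomes from the axon to the cell body.

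Gene counts came to 7916204 in library A and 13744313 in library B, and levels are given as counts per 1000000 gene counts of the library (CPM). Longer transcripts collect more reads, so the order of paralogs is taken from CPM per kb of summed exon length. Shares, sums and list medians in CPM are not corrected for length and describe where the reads fell. A gene was called detected at 1 CPM or more in both libraries. The 10 ganglion cell markers examined were all at 100 CPM or more in both libraries, and Jam2 stood at 2344 CPM in A and 1203 CPM in B. Markers of other retinal cells were also read. Of the microglia markers 7 of 10 were detected, summing to 316 CPM in A and 394 CPM in B. Of the Müller glia markers 5 of 6 were detected (514 and 444 CPM) and of the amacrine markers 4 of 7 (126 and 108). The members of these lists were uneven. Dkk3 gave 317 and 223 CPM of the Müller glia sum, while Rlbp1 stood at 0 and 1.60 CPM. Gad2 gave 58.4 and 56.8 CPM of the amacrine sum, while Slc32a1 stood at 0.126 and 0.728 CPM. Of the bipolar markers 2 of 6 were detected (231 and 104 CPM), of the vascular markers 2 of 5 (395 and 104), and of the pigment epithelium markers 2 of 6 (7.07 and 9.97), with Rpe65 and Tyrp1 at 0 in both libraries. In RNA pooled over many cells, fewer cells of a type and less RNA per cell cannot be told apart.

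The Rab genes took 94770 gene counts in A, 1.20% of the library, and 145329 in B, 1.06%. A single gene, Rab6b, held 42.5% of the Rab counts in A (95% exact binomial interval 42.2 to 42.8) and 42.8% in B (42.6 to 43.1). The share of its close relative Rab6a was 21.9% in A and 7.96% in B, and no other member reached 10% in either library. These intervals cover counting error only. The 2 Rab6 proteins act at the Golgi, where they direct vesicles back to the endoplasmic reticulum and outward to the cell surface, and Rab6b is known as the neuron-enriched form. A stretch of their coding sequences is shown because these 2 genes hold most of the Rab counts and their levels rest on telling their reads apart. Over 90 bases around the GTP-binding loop, coding positions 40 to 129 in GENCODE M21, they differ at 14 positions, given in capitals.
Rab6b: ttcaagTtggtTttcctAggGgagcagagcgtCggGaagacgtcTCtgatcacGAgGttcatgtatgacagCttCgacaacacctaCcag
Rab6a: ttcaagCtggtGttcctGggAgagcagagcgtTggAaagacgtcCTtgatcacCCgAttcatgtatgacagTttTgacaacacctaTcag
Across the full coding sequence the pair was 78.4% identical, and the longest stretch shared exactly by their annotated transcripts was 14 bases, so a longer exact match fits only 1 of the 2. The other paralog pairs were 62.2% to 77.6% identical, with exact shared stretches of up to 38 bases.

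Of the 57 Rab genes, 42 were detected, or 73.7%, against 46.8% of all 24015 symbols and 66.2% of the 16969 symbols with any count. At 10 CPM or more in both libraries stood 33 members (57.9%, against 27.8% of all symbols), and at 100 CPM or more 13 members (22.8%, against 6.53%). The median Rab level in A was 16.04 CPM and that in B 24.2 CPM, beside 5.81 and 8.66 CPM over the symbols with a count. Per kb of exon the Rab medians were 3.54 and 5.64 CPM per kb, beside 1.51 and 2.27. Most members therefore lay above the typical counted gene in both libraries, and a few lay far above it.

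**Figure D1:**
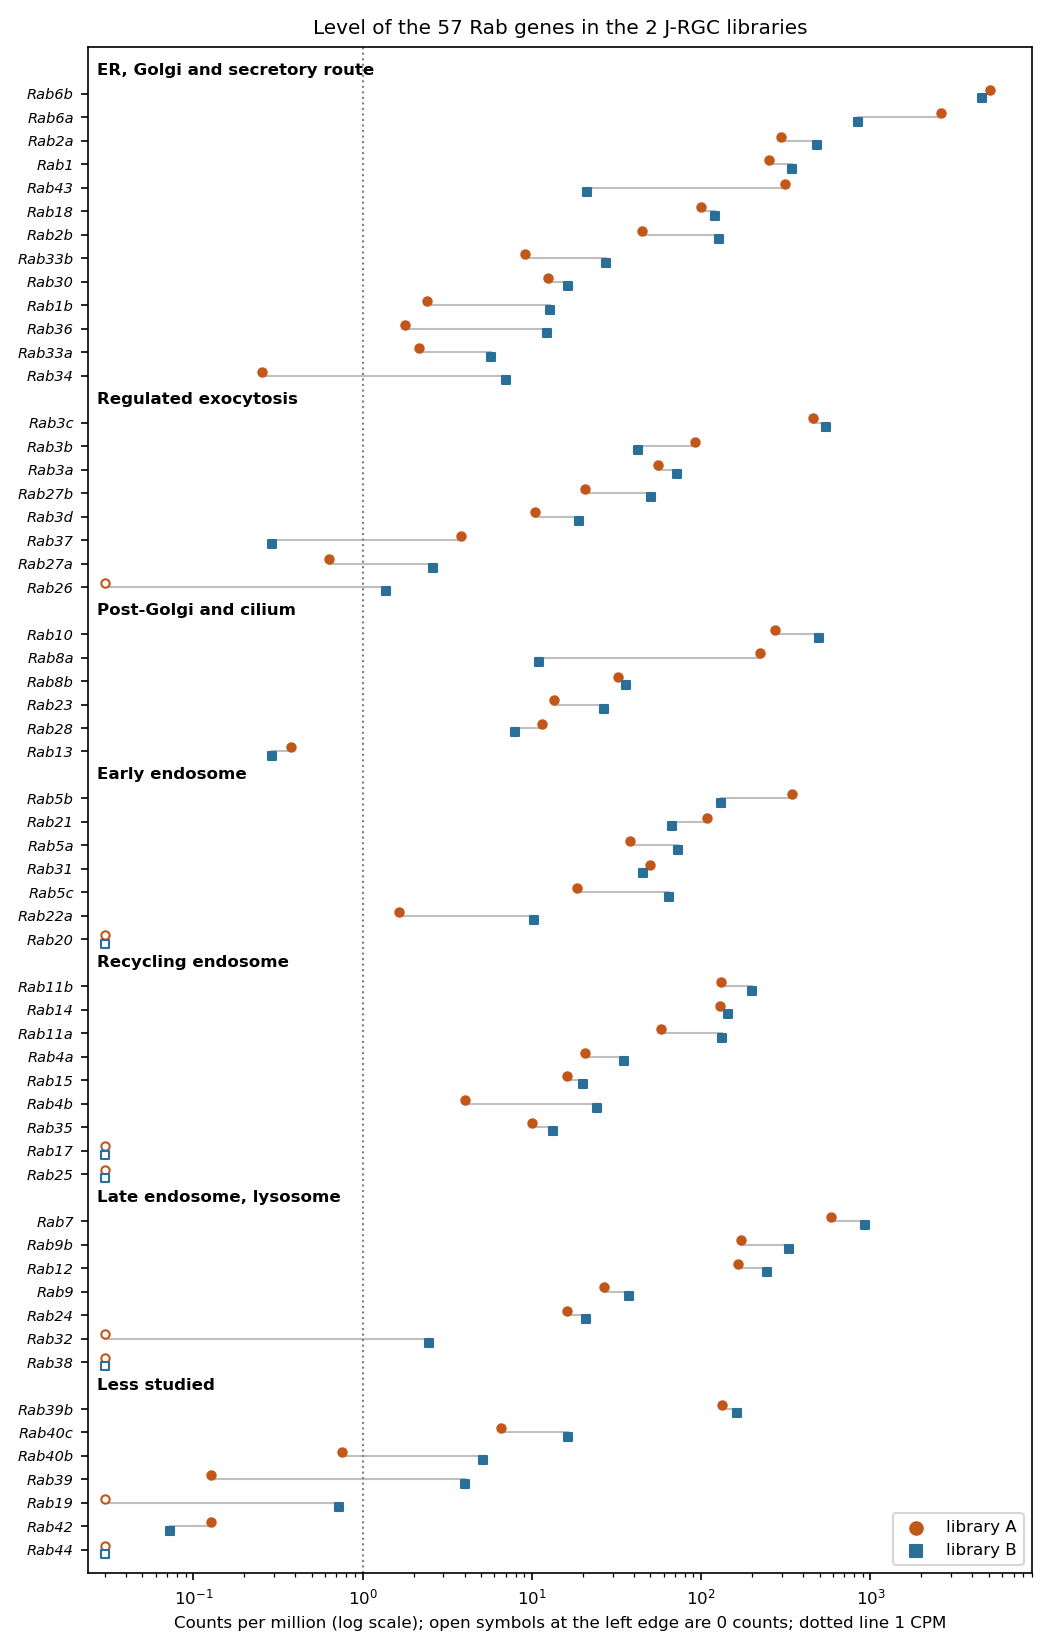
Level of each of the 57 Rab genes in library A (circles) and library B (squares), in CPM on a log axis, grouped by the compartment the protein serves; values of 0 are drawn at the left edge. Rab6b stands at 5088 and 4530.3 CPM, and 5 members have no count in either library.

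The members were placed in 7 groups by the compartment for which the protein is best known. The 13 genes of the endoplasmic reticulum, Golgi and secretory route held 71.02% of the summed Rab CPM per kb in A and 58.1% in B. Rab6a and Rab6b alone made up 60.6% and 43.1%, and the other 11 genes of the group 10.4% and 15.01%. The 7 late endosome and lysosome genes held 12.2% and 21.1%. The 8 genes of regulated exocytosis, the step that releases transmitter, held 3.33% and 3.82%. The remaining groups held between 1.47% and 5.96% each. The order of the 2 highest groups was the same in both libraries, and the order of the lower groups was not.

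**Figure D2:**
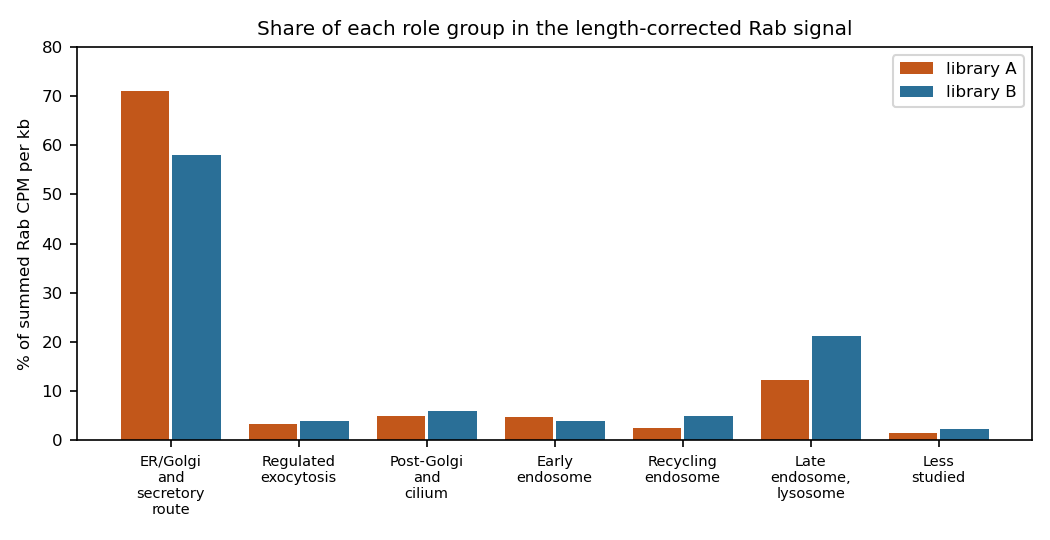
Share of the summed Rab CPM per kb of exon held by each of the 7 compartment groups, in percent, for library A and library B (bars, 1 value per library, no error bars). The secretory group stands at 71.02% and 58.1%, and the late endosome and lysosome group at 12.2% and 21.1%.

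In the secretory group 12 of 13 genes were detected. Rab6b stood at 5088 CPM in A and 4530.3 CPM in B. Among all symbols it was at rank 13 by mean CPM per kb. Rab6a stood at 2625 CPM in A and 842 CPM in B, so its level was 3.12-fold higher in A. The Rab6b difference, B over A, was -0.17 on the log2 scale and -0.55 with edgeR's TMM scaling, which centres most genes on no difference, and neither reached 2-fold. Rab2a, which acts between the endoplasmic reticulum and the Golgi, stood at 296 and 481 CPM, and was high per kb at 139 and 225 CPM per kb. Its paralog Rab2b stood at 44.97 and 128 CPM. Rab1, which carries cargo from the endoplasmic reticulum to the Golgi, stood at 253 and 342 CPM. The paralog Rab1b, with the same known role, was low at 2.40 and 12.8 CPM. Rab18, of the endoplasmic reticulum and lipid droplets, stood at 99.3 and 121 CPM. Rab43, a Golgi Rab, was high in A alone, at 311 CPM against 21.2 CPM in B. The 2 Rab33 genes, Rab30, Rab34 and Rab36, all linked to the Golgi or to autophagy, stood at or under 27.4 CPM in both libraries. Of these, Rab34 had 2 counts in A and 97 in B and was the only member of the group that was not detected.

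In the regulated exocytosis group 5 of 8 genes were detected, among them all 4 Rab3 genes, the Rabs of synaptic vesicles and dense-core granules. Rab3c stood at 458 CPM in A and 544 CPM in B. Rab3a, the form best known from synaptic vesicles of the adult brain, stood at 55.6 and 71.7 CPM. Rab3b stood at 91.5 and 42.1 CPM and Rab3d at 10.5 and 18.99 CPM. The annotated exons of Rab3c were long, 12.05 kb against 2.23 kb for Rab3a. Per kb Rab3c lay closer to the others: Rab3c at 38.03 and 45.2 CPM per kb, Rab3a at 24.97 and 32.2, Rab3b at 25.95 and 11.9, and Rab3d at 2.50 and 4.53. The order of Rab3a and Rab3b differed between the libraries. A stretch of 60 coding bases around the GTP-binding loop is shown because the family's order rests on telling these 4 genes apart. Capitals mark the 18 positions at which they are not all the same, and positions are counted from the start of each GENCODE M21 coding sequence (73 to 132, or 97 to 156 in Rab3c).
Rab3a: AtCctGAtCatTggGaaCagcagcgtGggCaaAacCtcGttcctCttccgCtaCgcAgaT
Rab3b: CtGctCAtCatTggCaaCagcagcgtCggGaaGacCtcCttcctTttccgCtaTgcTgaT
Rab3c: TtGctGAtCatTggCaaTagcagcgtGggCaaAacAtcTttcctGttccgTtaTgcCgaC
Rab3d: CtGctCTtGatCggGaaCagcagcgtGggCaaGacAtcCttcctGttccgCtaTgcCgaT
In this stretch Rab3b and Rab3c each differ from Rab3a at 11 positions and Rab3d at 12. Rab27b, a Rab of secretory granules, stood at 20.5 and 50.6 CPM. Its paralog Rab27a, best known from melanosomes and cytotoxic granules, stood at 0.632 and 2.62 CPM. Rab37, described on secretory granules, had 30 counts in A and 4 in B, and Rab26, described on synaptic and secretory vesicles, had none in A and 19 in B. Neither of these met the detection level in both libraries.

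Of the 6 genes of post-Golgi delivery and the cilium, 5 were detected. Rab10, which delivers membrane to growing neurites, stood at 274 CPM in A and 495 CPM in B. Rab8a, of exocytic carriers and the primary cilium, stood at 222 CPM in A but 11.1 CPM in B. Its paralog Rab8b stood at 32.5 and 36.01 CPM, and per kb Rab8a was the higher of the 2 in A and Rab8b in B. Rab23, known as a negative regulator of Hedgehog signalling, stood at 13.5 and 26.6 CPM. Rab28, a ciliary Rab, stood at 11.5 and 7.93 CPM. Rab13, of epithelial tight junctions, had 3 counts in A and 4 in B and was not detected.

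Among the 7 early endosome genes, 6 were detected. The Rab5 proteins drive the fusion of early endosomes, and Rab5b stood at 342 CPM in A and 131 CPM in B. Rab5a stood at 38.1 and 73.05 CPM, and Rab5c at 18.6 and 64.97 CPM. Per kb the 3 genes spread widely in A, at 81.4, 7.24 and 8.46 CPM per kb, while in B Rab5b at 31.2 and Rab5c at 29.6 were nearly level above Rab5a at 13.9. Rab21, linked to integrin traffic, stood at 109 and 67.2 CPM. Rab31 stood at 49.6 and 45.5 CPM, and its relative Rab22a at 1.64 and 10.3 CPM. Rab20 had no count in either library, which allows up to 0.379 CPM in A and 0.218 CPM in B at a limit of 3 counts.

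Of the 9 recycling endosome genes, 7 were detected. Rab11b stood at 131 CPM in A and 199.9 CPM in B, and Rab11a at 57.6 and 133 CPM; both return receptors slowly to the surface. Rab14, which acts between the Golgi and endosomes, stood at 130.0 and 144 CPM. Rab4a, of the fast recycling route, stood at 20.5 and 35.1 CPM and Rab4b at 4.04 and 24.2 CPM. Rab15 and Rab35 both lay between 9.98 and 19.9 CPM in the 2 libraries. The epithelial members Rab17 and Rab25 had no count in either.

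Late endosomes and lysosomes were represented by 5 detected genes of 7. Rab7, which matures late endosomes, fuses them with lysosomes and couples them to motors, stood at 584 CPM in A and 929 CPM in B. Per kb it was the third highest Rab by mean level, at 224 and 356 CPM per kb. Rab9b stood at 173 and 331 CPM, and its paralog Rab9, known for return traffic from late endosomes to the Golgi, at 26.8 and 37.5 CPM. Rab12, linked to the degradation of recycling receptors, stood at 165 and 245 CPM. Rab24, linked to autophagy, stood at 16.04 and 20.95 CPM. Each of these 5 read higher in B by less than 2-fold, except that Rab24 stood at -0.09, B over A on the log2 scale, with DESeq2's size factors. Of the Rabs of melanosomes and other lysosome-related organelles, Rab32 had no count in A and 34 in B, and Rab38 had none in either.

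Only 2 of the 7 less studied members were detected. Rab39b, mutated in an X-linked form of intellectual disability with early parkinsonism, stood at 132 CPM in A and 163 CPM in B. Its paralog Rab39 had 1 count in A and 55 in B. Rab40c, one of the Rabs that carry a SOCS box, stood at 6.57 and 16.2 CPM, and Rab40b at 0.758 and 5.17 CPM. Rab19 had 10 counts, all in B, Rab42 had 1 in each library, and Rab44 had none.

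Of the 15 Rab genes that did not pass the detection level, 6 reached 1 CPM in B alone (Rab26, Rab27a, Rab32, Rab34, Rab39 and Rab40b). Rab37 did so in A alone. The other 8 stayed under 1 CPM in both libraries: Rab13, Rab17, Rab19, Rab20, Rab25, Rab38, Rab42 and Rab44. Several of these are known best from epithelia, melanocytes or blood cells. The order of the members was similar in the 2 libraries. Of the 12 highest Rab genes in each library, 9 were shared, by CPM and by CPM per kb alike, and Spearman's rank correlation over the 57 genes was 0.922 for CPM. This describes the 2 libraries, which share gene lengths and mapping.

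The 2 libraries were then compared gene by gene, since they came from different litters and had no treatment between them. An exact two-sided binomial test given the library totals, with Benjamini-Hochberg adjustment over the 14107 genes with at least 10 counts, was called at an adjusted p under 0.05 and at least 2-fold on the log2(CPM + 0.5) scale. It compares these libraries, not conditions. Of 50 Rab genes tested, 24 were called (48.0%), against a background of 42.6% of all genes. Higher in A were 6 (12%, against 10.3%), and higher in B 18 (36.0%, against 32.3%). These shares were near the background, so the Rab genes moved between the libraries about as often as other genes. Without the 2-fold minimum 46 of the 50 passed (92%), against 77.8% of all genes. Such calls come more easily at higher counts, and the Rab genes lay above the typical counted gene. At a mean of 10 CPM or more, 67.6% of 37 Rab genes and 70.9% of 7769 genes in all lay within 2-fold. The median log2 difference, B over A, was 0.68 for the Rab genes and 0.53 for all genes tested. The TMM scaling moves the B over A ratio of CPM by -0.38 on the log2 scale, and less after the pseudocount for genes of low level, and 20 Rab genes were then called, 7 higher in A and 13 higher in B, against backgrounds of 37.7%, 14.7% and 23.0%. Rab11a, Rab19, Rab27b, Rab33a and Rab40c lost their call under it, Rab21 became called as higher in A, and no called Rab gene changed direction.

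The 6 genes called higher in A included the 2 largest differences in the family on the log2(CPM + 0.5) scale, Rab8a at -4.27 and Rab43 at -3.84. In CPM, Rab8a was 20.1-fold higher in A and Rab43 14.6-fold. Rab37 was 13.02-fold higher in A, a ratio of 30 counts to 4, and stood at -2.44 on the log2(CPM + 0.5) scale. Rab6a was 3.12-fold, Rab5b 2.61-fold and Rab3b 2.17-fold higher in A. These genes belong to 4 of the compartment groups, and in the Rab6, Rab8, Rab3 and Rab5 families a paralog was not called higher in A. Rab6b stood at a log2 difference of -0.17, Rab8b at 0.15 and Rab3a at 0.37, none of them called under this scaling or TMM. With TMM they read -0.55, -0.23 and -0.01, so the signs of Rab8b and Rab3a depend on the scaling. Rab5c was called in the other direction at 1.78. Whether such gaps between paralogs exceed the spread between libraries could not be tested with 2 libraries.

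The 18 genes called higher in B lay mostly at low levels. The highest of them by mean CPM were Rab11a and Rab2b, at 2.31-fold and 2.84-fold higher in B. Rab5c was 3.50-fold higher in B, Rab4b 5.98-fold, Rab1b 5.34-fold, Rab22a 6.29-fold, Rab36 6.95-fold and Rab40b 6.82-fold. Rab33b, Rab27b, Rab40c, Rab33a and Rab27a were between 2.47-fold and 4.15-fold higher in B. With 2 counts in A, Rab34 had a B over A ratio of 27.9 (95% exact interval 7.53 to 234), and with 1 count Rab39 had 31.7 (5.45 to 1274). For the genes with no count in A, the B level was set against 3 counts in A. Rab32 then read 6.53-fold, Rab26 3.65-fold and Rab19 1.92-fold higher in B. These ratios leave out the counting error of the 34, 19 and 10 counts in B, so they are not lower limits. Marker levels also differed between the libraries. The summed ganglion cell markers read 11839 CPM in A and 16644 CPM in B, with 2 of 10 called higher in B. Not all of the 10 moved the same way. Slc17a6 (1732 and 1439 CPM) and Rbpms (1554 and 1021 CPM) read higher in A, and the rest, led by Nefl (3542 and 6087 CPM), read higher in B. Jam2 also read higher in A, at 2344 and 1203 CPM. The 5 vascular markers summed to 395 and 104 CPM, with 2 called in each direction, and the 4 cell cycle markers to 166 and 79.4 CPM, with 1 called higher in A. Of all genes, 10.3% were called higher in A and 32.3% in B. The markers' part in the Rab differences was not tested.

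**Figure D3:**
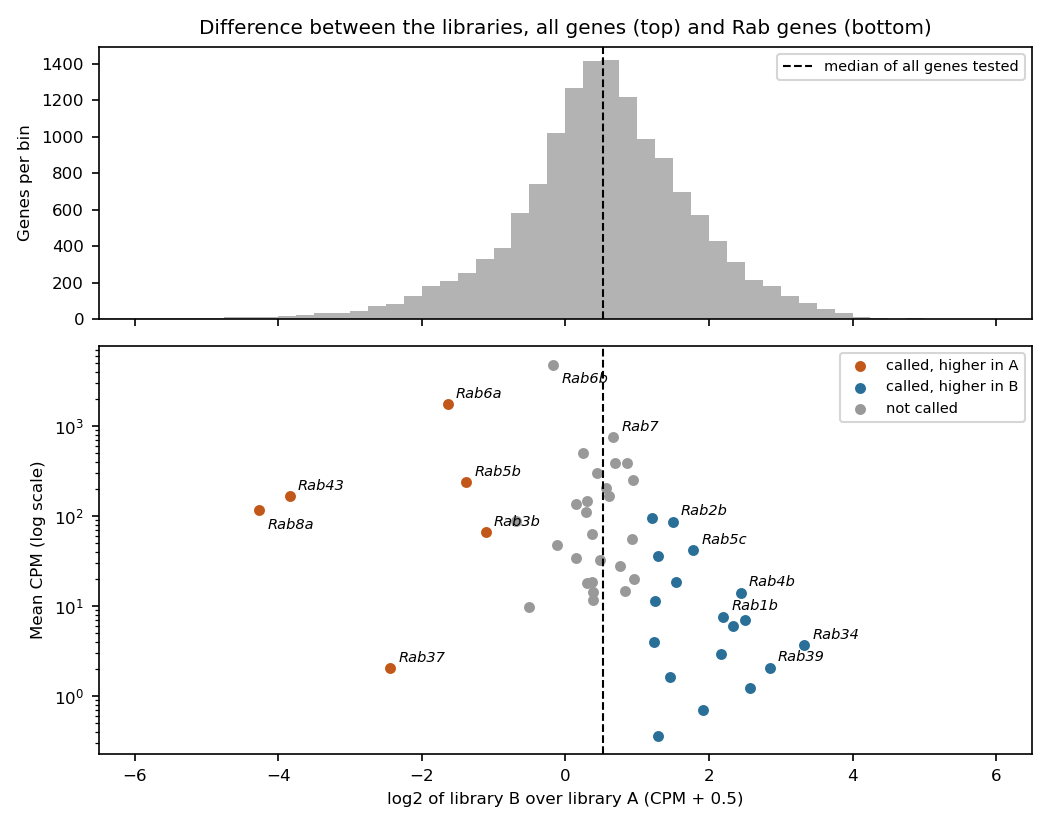
Difference between the libraries as log2 of B over A (CPM + 0.5), for all 14107 genes tested (histogram, top) and for the 50 Rab genes tested against their mean CPM on a log axis (points, bottom). The dashed line is the median of all genes, 0.53, and Rab8a (-4.27) and Rab43 (-3.84) lie farthest to the left.

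Because most Rab subfamilies hold close paralogs, 20 pairs were compared per kb of exon within the cells. Each ratio has a 95% interval from counting error and the spread that edgeR fitted over all genes. A pair was called separated when the interval excluded 1 and both libraries gave the same order. Rab7b was not used, and Rab32 with Rab38 had too few counts in the second gene, which left 18 pairs. Of these, 9 were separated. Rab39b exceeded Rab39 by 62.6-fold (23.2 to 169), with a ratio of 35.7 in B and only 1 Rab39 count in A. Rab1 exceeded Rab1b by 23.4-fold (8.01 to 68.4), and by 63.02-fold by the counts of A and 15.98-fold by those of B. Rab31 exceeded Rab22a by 15.02-fold (5.32 to 42.4), and by 57.1-fold by the counts of A and 8.33-fold by those of B. In each of these pairs a single gene supplied most of the subfamily's signal in both libraries.

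Rab2a exceeded Rab2b by 8.79-fold (3.56 to 21.7). Rab3a exceeded Rab3d by 8.14-fold (3.12 to 21.2), and Rab27b exceeded Rab27a by 7.94-fold (2.92 to 21.6). Those 6 pairs were separated under each of the 7 alternatives tried, including other length measures and either library alone. The other 3 were not separated in 1 of the libraries taken alone. Intervals from 1 library are wider by construction, and the Rab5b over Rab5c ratio itself was only 1.05 in B. Rab5b exceeded Rab5a by 5.33-fold (2.20 to 12.9) and Rab5c by 2.96-fold (1.20 to 7.27). In A alone these were 11.2-fold and 9.62-fold. In B alone, the log2 ratio of Rab5a to Rab5b was -1.17 (-2.97 to 0.64) and that of Rab5b to Rab5c was 0.07 (-1.76 to 1.91). Rab9b exceeded Rab9 by 3.44-fold (1.38 to 8.61), and in A alone the log2 ratio of Rab9 to Rab9b was -1.50 (-3.38 to 0.37).

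The leading Rab6 pair was not separated: Rab6b over Rab6a was 2.06-fold, with an interval of 0.708 to 5.97, at 1.44 in A and 3.99 in B. Rab6b was the higher gene in each library, but the interval holds a ratio of 1. Rab8a over Rab8b was 3.44-fold (1.43 to 8.28) over both libraries, yet 6.92 in A and 0.311 in B, in opposite orders. Rab11a over Rab11b was 1.18-fold (0.497 to 2.81) and Rab4a over Rab4b 2.21-fold (0.811 to 6.03). In A alone Rab4a over Rab4b (log2 ratio 2.50) and Rab8a over Rab8b (2.79) were separated.

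Within the Rab3 family, Rab3a over Rab3b was 1.51-fold (0.656 to 3.47), and Rab3c over Rab3a was 1.45-fold (0.585 to 3.62). Neither was separated per kb of exon. The length measure decided the second: per kb of coding sequence alone the log2 ratio of Rab3a to Rab3c was -2.93, and Rab3c was then separated as the higher gene. The coding length likewise separated Rab33b over Rab33a (log2 ratio of Rab33a to Rab33b -2.26) and Rab40c over Rab40b (-1.93 for Rab40b to Rab40c), which were not separated per kb of exon. Per kb of exon those ratios were 1.51 (0.510 to 4.49) for Rab33b over Rab33a and 2.50 (0.812 to 7.68) for Rab40c over Rab40b. Rab5c over Rab5a was 1.80-fold (0.765 to 4.26) and was not separated under any of the 7 alternatives. How long the untranslated ends are in these cells is not given by gene counts.

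**Figure D4:**
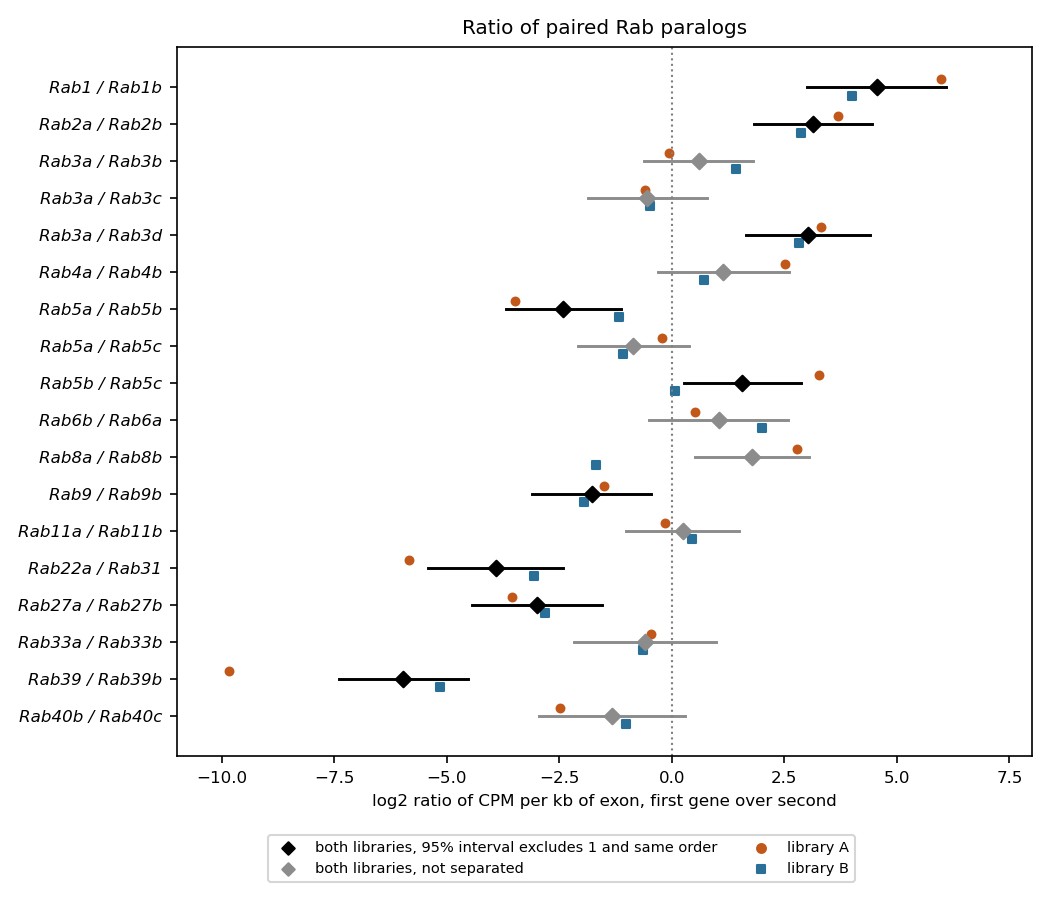
Log2 ratio of CPM per kb of exon for 18 paralog pairs, first gene over second, with diamonds for both libraries together, horizontal lines for the 95% interval, circles for library A and squares for library B. The 9 pairs in black have intervals that exclude a ratio of 1 and the same order in A and B, and Rab8a over Rab8b has its library values on opposite sides of the dotted line at a ratio of 1.

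The regulators shared by the whole family were present. All 8 genes of Rab prenylation and recycling were detected, and 4 stood at 100 CPM or more in both libraries. Gdi2 stood at 379 CPM in A and 509.8 CPM in B. Chml, a Rab escort protein that presents new Rabs for prenylation, stood at 172 and 174 CPM. Of the 8 tested between libraries, 1 was called higher in A and 1 in B, against 10.3% and 32.3% of all genes.

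The exchange factors were less evenly represented. Of 30, 21 were detected (70.0%, against 46.8% of all symbols), and 2 reached 100 CPM in both libraries. The 3 with the highest mean CPM, uncorrected for length, were Sbf2 at 231 and 284 CPM, Gapvd1, an exchange factor for Rab5 and Rab31, at 160.3 and 63.4 CPM, and Dennd5b at 105 and 116 CPM. Madd, the exchange factor of Rab3 and Rab27, stood at 64.4 and 92.04 CPM. Rab3ip, which activates Rab8, stood at 19.3 and 23.2 CPM. Between the libraries 2 of 29 tested were called higher in A (6.90%, against 10.3% of all genes) and 10 in B (34.5%, against 32.3%).

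Of 40 GTPase-activating proteins, 35 were detected (87.5%) and 3 reached 100 CPM in both libraries. Rabgap1l stood at 443 and 378 CPM, and Rabgap1 at 317 and 206 CPM. Tbc1d7, known also as a subunit of the tuberous sclerosis complex, was high in A alone, at 806 CPM against 12.7 CPM in B. The subunits of the Rab3 GTPase-activating complex stood at 11.5 and 15.4 CPM for the catalytic Rab3gap1 and at 105 and 108 CPM for Rab3gap2. Between the libraries 3 of 39 tested were called higher in A (7.69%, against 10.3% of all genes) and 11 in B (28.2%, against 32.3%).

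Effectors were taken by compartment. All 16 Golgi and post-Golgi effectors were detected, and 7 stood at 100 CPM or more in both libraries. Erc1, an effector of Rab6, stood at 370.3 and 594 CPM, Gcc2, a Golgi tether, at 228 and 290.3 CPM, and Bicd1, which links Rab6 to dynein, at 723 CPM in A and 191 CPM in B. Bicd1 was called higher in A, as was Rab6a, while its relative Bicd2 at 62.4 and 41.8 CPM was not called. In all 3 of 16 were called higher in A (18.8%, against 10.3% of all genes) and 2 in B (12.5%, against 32.3%).

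Of 23 endosomal effectors, 20 were detected (87.0%). Rabep1, the Rab5 and Rab4 effector rabaptin, stood at 156 and 208 CPM. Eea1, the early endosome tether that binds Rab5, stood at 137 and 212 CPM, and Osbpl1a, a Rab7 effector, at 122 and 172 CPM. Between the libraries 2 of 23 were called higher in A (8.70%, against 10.3% of all genes) and 7 in B (30.4%, against 32.3%).

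The effectors of Rab3 and Rab27 were uneven, with 7 of 12 detected (58.3%) and 2 at 100 CPM or more in both libraries. Rph3a, rabphilin, stood at 524 and 710.5 CPM, and the active zone gene Rims2 at 177 and 379 CPM. Sytl2, a Rab27 effector, stood at 362 CPM in A and 69.8 CPM in B. The melanosome effector Mlph, which works with Rab27a, stood at 0.126 and 0.655 CPM, under the detection level in both. Between the libraries 2 of 11 were called higher in A (18.2%, against 10.3% of all genes) and 5 in B (45.5%, against 32.3%). By contrast all 17 genes of the synaptic vesicle fusion machinery were detected, with Snap25 at 10951 and 12938 CPM, Syt1 at 1229 and 2005 CPM, and Syn1 at 809.9 and 895 CPM. Of these 17, 1 was called higher in A (5.88%, against 10.3% of all genes) and 5 in B (29.4%, against 32.3%). These lists were drawn up by known function, and their differences in level carry no test.

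**Figure D5:**
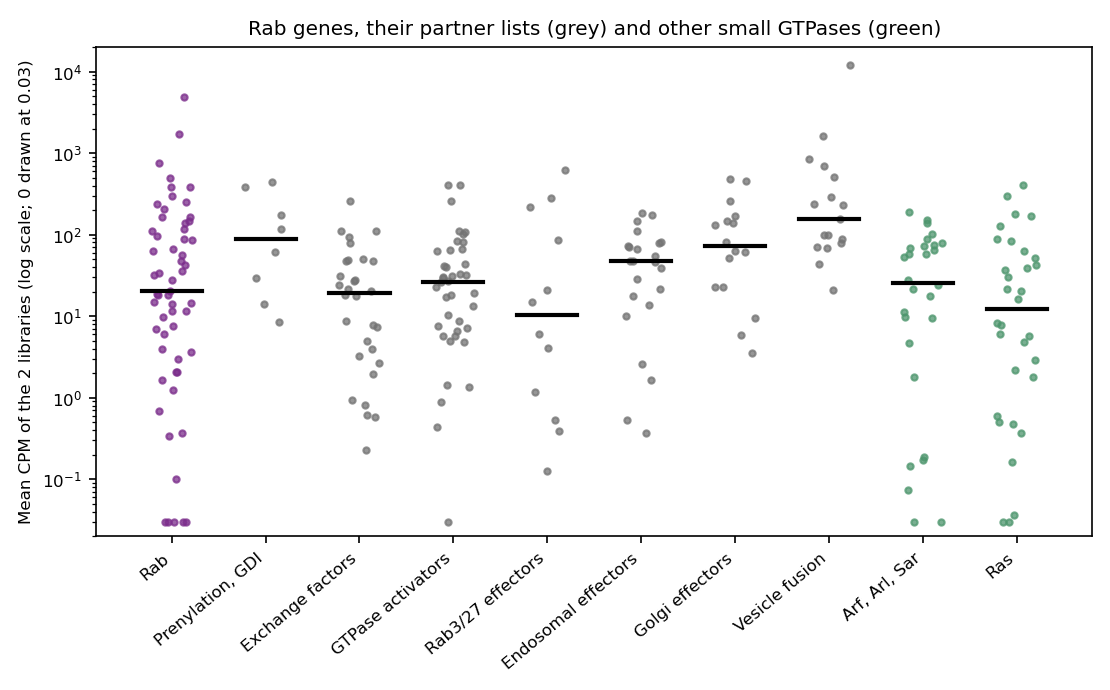
Mean CPM over the 2 libraries, not corrected for length, on a log axis, of each Rab gene, each gene in the lists of Rab partners and each gene of 2 other small GTPase families; points are genes, thick bars are list medians, and genes at 0 are drawn at the lower edge. The Rab median is 20.1 CPM, the median of the Golgi and post-Golgi effectors is 72.7 CPM, and that of the Rab3 and Rab27 effectors is 10.4 CPM.

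Set beside 2 other small GTPase families, the Rab genes were detected about as often. Detection reached 22 of 28 Arf, Arl and Sar genes (78.6%) and 22 of 32 Ras genes (68.8%), against 73.7% of the Rab genes. The families' summed reads, not corrected for length, came to 11972 CPM in A and 10574 CPM in B for Rab, beside Arf, Arl and Sar at 1279 and 1364 CPM and Ras at 1493 and 1935 CPM. Without Rab6a and Rab6b the other 55 Rab genes summed to 4259 and 5201 CPM, over more genes than either of the other families holds. The member with the highest CPM in each of these was Arl8b, a lysosome transport GTPase, at 199 and 178 CPM, and Diras2 at 456 and 355 CPM. Per kb Arl8b stood at 44.4 and 39.7 CPM per kb and Diras2 at 95.2 and 74.1 CPM per kb, beside 1011 and 900.5 for Rab6b.

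Some Rab genes share exon sequence with a neighbour, and whether strand was used in counting was not given in the sources used here. In GENCODE M21, 20 of the 57 overlapped an exon of another gene. Rab6a overlapped Mrpl48 on the opposite strand by 708 bases, and Mrpl48 itself stood at 2.78 CPM in A and 5.82 CPM in B. Rab24 overlapped Prelid1 on the opposite strand by 1258 bases, where Prelid1 stood at 1825 and 61.5 CPM. Rab43 overlapped the gene model Gm45140 by 4164 bases and Rab4b the gene model Gm21983 by 1280 bases, both on the same strand. Rab2b overlapped the gene model Gm43766 on the opposite strand by 2469 bases. For these 5 genes the counts are uncertain, since reads from the shared bases cannot be told apart. For Rab6a and Rab24 such reads may also have been set aside as ambiguous. For Rab2b this may hold for 195 bases shared with Tox4 on the opposite strand. Whether Gm43766 was a listed symbol was not checked. Ambiguous reads were 0.313% of the reads listed in A and 0.357% in B. Gm45140 and Gm21983 were not among the listed symbols, so no read could be set aside against them. Shorter overlaps leave doubt for other members too. Rab26 overlapped Traf7 on the same strand by 267 bases, with Traf7 at 4.93 and 17.1 CPM. Rab33b and Rab39b overlapped Gm38160 and Gm15063 on the opposite strand by 661 and 634 bases. Rab10 overlapped its antisense gene Rab10os by 143 bases, with Rab10os at 1.01 and 3.35 CPM. The 4 Rab-like or renamed genes outside the naming rule had low or moderate levels: Rab7l1 at 0 and 0.728 CPM, Rabl2 at 20.97 and 21.2 CPM, Rabl3 at 11.5 and 13.8 CPM, and Rabl6 at 28.04 and 35.6 CPM.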

How the data were processed

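Each library's file as deposited by the authors held raw read counts by gene symbol. Per the submitters' processing notes, reads were handled with Trimmomatic 0.32, TopHat2 2.0.10 and HTSeq 0.6.1 on mm9; settings, annotation and strand use were not given in the sources used here. Genes took 26.8% of the reads listed in A and 30.9% in B, and summary lines were left out of all totals. Reads assigned to no gene were 54.3% in A and 47.9% in B. Reads without a unique alignment were 18.5% and 20.8%. GENCODE M21, on another build, gave only lengths, exon overlaps and coding sequences, so no coordinates are reported. The members, pairs and lists were chosen with earlier results of these data known. Values in both libraries were given for the 12 highest members by CPM or CPM per kb, all pairs, members called between libraries and members under 3 counts, and for the 3 highest genes of each list, except for a few items that are not reported here.

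CPM, the exact binomial test and pair ratios were computed in Python 3.11.15 with scipy 1.17.1, with a pseudocount of 0.5 on log2 values. The spread for pair intervals came from edgeR 4.0.16 (R 4.3.3; intercept-only fit, TMM factors, 11272 genes kept; biological coefficient of variation 0.507). DESeq2 1.42.0 size factors, other lengths, minimums and pseudocounts, and each library alone were alternatives. On data simulated with counting noise alone, the binomial test over 14105 genes recovered 100% of 200 genes changed 3-fold, with 4 unchanged genes called. The changed genes were drawn from those with more counts. The pair interval held the true ratio in 94.0% of 4000 pairs simulated with the same fitted spread that the interval uses. These checks test the computation and cannot show how the test or the interval behaves under the real spread between libraries. Amplified reads carry no molecular identifiers, so intervals and the limit of 3 counts cover counting error only.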

Additional observations from a re-analysis of the deposited data

How the results depend on the processing

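The count of detected Rab genes was 42 at 1 CPM, 44 at 0.5 CPM and 33 at 10 CPM, and 43 to 48 with either library alone. The median Rab log2(CPM + 0.5) was 4.34, and 4.88 over members with at least 10 counts; with either library alone it was 4.05 to 4.62. Per kb the median was 2.32, 3.29 over members with at least 10 counts and 5.00 per kb of coding sequence, with 2.01 to 2.62 for either library alone. Without the 2-fold minimum, 46 Rab genes were called between the libraries in place of 24. Of them 37, in place of 18, were higher in B. These were 92% and 74% of the 50 tested, against 77.8% and 57% of all genes under that setting. Calls with no fold minimum come more easily at higher counts, and the Rab genes lay above the typical counted gene. The log2 difference between libraries changed sign for 7 tested Rab genes with TMM scaling and for 11 with DESeq2's size factors, none of them called. The number of separated pairs was 9, and 7 to 10 with either library alone. It was 12 with coding length and 12 with no length correction. Log2 ratios that changed sign were Rab3a to Rab3b (-0.056 in A alone, 1.43 in B alone, -0.017 with coding length, -0.068 with no length), Rab5a to Rab5c (0.53 with coding length, 0.41 with no length), Rab8a to Rab8b (2.79 in A alone, -1.69 in B alone) and Rab11a to Rab11b (-0.15 in A alone, 0.45 in B alone, -0.78 with coding length, -0.79 with no length). The coding and exon lengths differ by gene, which by construction moves ratios per kb. No paired analysis was possible because the series has 1 group. Depth limits the 7 members with under 10 counts, which were not tested between libraries.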
